A study of Homo sapiens with 10 samples.

Results

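The mitosis and spindle genes described here were 42 genes whose products start mitosis, attach chromosomes to the spindle, move them apart and divide the cell. They were taken by gene symbol from 52402 symbols in the read count tables, and all 42 were among the 14884 genes that passed the filter on low counts. The cells were BEAS2B, an immortalized human bronchial epithelial line used as a model of normal lung cells, which the labels give as wild type. Each group was 2 libraries from cells transfected with a lipid reagent: miRcontrol received a scrambled control miRNA, miR3124_mimic a synthetic copy of miR-3124-5p, miR200b_mimic a synthetic copy of miR-200b-3p, miR92b_inhibitor a molecule that blocks miR-92b, and the 3-miRNA mixed group a mixture that the labels describe only by that name. The final concentration was 50 nM and RNA was taken 48 h after transfection; the amount of each agent in the 3-miRNA mixed group is not given in the sources used here. The question was what a set of miRNAs picked for the diagnosis of small cell lung cancer does to the transcripts of a normal lung cell. Nothing in the sources says whether the libraries of a group came from separate transfections, so the p-values measure the spread between these libraries, which may be technical.

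Total read counts were 17666345 and 16773655 in the miRcontrol libraries, 14518832 and 17414891 with miR3124_mimic, 13587666 and 17585455 with miR200b_mimic, 17279748 and 18146986 with miR92b_inhibitor, and 18004955 and 18503890 with the mixture. Levels below are in CPM, read counts scaled to a common normalized library size. The labelled cell type was checked on marker genes. The miRcontrol libraries held the keratins KRT8 at 814 CPM and KRT7 at 793 CPM, but the adhesion genes EPCAM at 0.289 CPM and CDH1 at 0.146 CPM and the basal keratin KRT5 at 0.174 CPM were near 0. None of the 6 airway lineage markers (NKX2-1, TP63, SCGB1A1, FOXJ1, MUC5AC and MUC5B) passed the filter, and SCGB1A1 and MUC5AC had no count in any library. Of the 8 mesenchymal markers, VIM and FN1 were at 3800 CPM and 3264 CPM, and COL1A2 and PDGFRA did not pass the filter. PTPRC, which marks leukocytes, and PECAM1, which marks endothelium, were at 0.087 CPM and 0.088 CPM.

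Entry into mitosis is driven by the kinase CDK1 with its cyclins. The kinetochore then joins each chromosome to spindle microtubules, a checkpoint holds the cell until all are attached, and the anaphase-promoting complex (APC/C) ends mitosis by marking cyclin B and securin for destruction. Most of these genes are transcribed late in the cell cycle through a promoter element called the CHR, which is read by complexes built on MuvB together with B-MYB and FOXM1, often beside CCAAT boxes bound by NF-Y.

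A miRNA acts through its seed, bases 2 to 8, shown in capitals because it is the part that pairs with a target. The mimics are copies of their miRNA, whereas miR-92b itself was not transfected but blocked by the inhibitor. The labels do not say which arm of miR-92b the inhibitor blocks, so both are shown. The mature sequences are RefSeq's on GRCh38.p14, and no seed is shared between them.
miR-3124-5p: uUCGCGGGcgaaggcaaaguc
miR-200b-3p: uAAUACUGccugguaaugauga
miR-92b-5p: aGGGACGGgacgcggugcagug
miR-92b-3p: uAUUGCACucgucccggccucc
They lie on the plus strand at chr1:248826383-248826403, chr1:1167160-1167181, chr1:155195196-155195217 and chr1:155195237-155195258, in that order.

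Annotated 3′ untranslated regions (3′UTRs) of the 42 genes were searched for the 7 bases that pair with each seed (GENCODE v29, GRCh38). CCCGCGA, the match of miR-3124-5p, was in 0 of 42 and in 0.488% of the 12089 tested genes with a 3′UTR. CCGTCCC, the match of miR-92b-5p, was in 0 of 42 against 3.62%, and GTGCAAT, the match of miR-92b-3p, was in 1 of 42 (AURKA) against 11.0%. CAGTATT, the match of miR-200b-3p, was in 7 of 42 (16.7%, exact 95% interval 6.97 to 31.4%) against 17.2% of all genes, so the members held it about as often as other genes. The 7 were CCNA2, CDC25B, BUB3, KIF11, KIF14, ANLN and MKI67. The sites of KIF11, MKI67 and KIF14, which include the member that fell furthest with miR200b_mimic, are shown with the match in capitals.
KIF11: tccctcctttCAGTATTtttca
MKI67: ctggtaagtaCAGTATTtcaag
KIF14 first site: gcagtcagaaCAGTATTagtga
KIF14 second site: tcttaatattCAGTATTtaatc
The capitals are at chr10:92654714-92654720 (plus strand), chr10:128097413-128097419, chr1:200551980-200551986 and chr1:200551710-200551716 (minus strand). A match is a description of letters; whether a site is bound was not tested.

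Promoters from 250 bases before to 50 after the RefSeq start (GRCh38.p14) were available for 35 of the 42 members, all except AURKA, BIRC5, BUB3, FOXM1, TPX2, TTK and UBE2C. The CHR, searched as TTTGAA or TTCAAA, was in 24 of 35 (68.6%, exact 95% interval 50.7 to 83.1%), in 9.70% of the 10434 promoters of tested genes and in 15.4% of all 27305 promoters. CCAAT or ATTGG was in 27 of 35 (77.1%), against 36.4% of tested genes and 35.7% of all promoters. Both were in 20 of 35 (57.1%), against 4.05% of tested genes. The E2F words TTTCCCGC and TTTGGCGC (or GCGGGAAA and GCGCCAAA) were in 1 of 35 and 0 of 35, against 2.57% and 1.07% of tested genes. The CHR nearest to the start lay at a median of 21 bases before it and, in 20 of 24 promoters, between 60 before and 50 after it. The 11 members without either CHR word were CCNA2, CCNB1, CDC25B, CDC25C, AURKB, NEK2, BUB1, PTTG1, CENPE, KIF20A and KIF2C. Windows of 30 bases around the nearest CHR, on the gene's strand with the CHR in capitals, are shown for members of different roles among the 24.
CCNB2: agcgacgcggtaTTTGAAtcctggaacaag
PLK1: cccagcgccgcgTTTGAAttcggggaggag
BUB1B: gggaccgttaaaTTTGAAacttggcggcta
CDC20: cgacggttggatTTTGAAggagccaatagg
CENPA: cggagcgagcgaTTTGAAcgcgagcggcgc
KIF11: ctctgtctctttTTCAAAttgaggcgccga
KIF4A: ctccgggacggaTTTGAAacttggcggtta
PRC1: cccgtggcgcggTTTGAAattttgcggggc
MKI67: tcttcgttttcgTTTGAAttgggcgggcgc
The windows are at chr15:59105105-59105134, chr16:23678848-23678877, chr15:40161034-40161063, chr1:43358904-43358933, chr2:26786026-26786055, chr10:92593090-92593119 and chrX:70290058-70290087 on the plus strand, and at chr15:90994538-90994567 and chr10:128126435-128126464 on the minus strand.

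All 42 genes were lower than in miRcontrol with miR3124_mimic, miR200b_mimic and the 3-miRNA mixed group, and 36 of 42 were lower with miR92b_inhibitor (edgeR quasi-likelihood test, adjusted p under 0.05). Among all genes tested, 25.3% were called lower with miR3124_mimic, 19.1% with miR200b_mimic, 18.2% with miR92b_inhibitor and 21.1% with the mixture. No member was called higher in any of these comparisons (25.7%, 21.4%, 17.5% and 21.5% of all genes were, in the same order): 0 were higher at an unadjusted p under 0.05 and 0 by DESeq2. The median log2 fold change of the members was -0.54 with miR3124_mimic, -0.44 with miR200b_mimic, -0.27 with miR92b_inhibitor and -0.61 in the 3-miRNA mixed group, while the median over all genes tested was within 0.01 of 0 in each. The scaling places the typical gene near 0, so the latter is no independent contrast. With library totals only, the median over all genes was 0.0302, -0.0161, 0.00162 and 0.0183 in the same order. The transfected groups share the miRcontrol libraries, so these values are not independent of each other. Fewer dividing cells and less of these RNAs per cell cannot be told apart in bulk samples.

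The 42 genes took 1.16% and 1.17% of the counts in the miRcontrol libraries. Their share was 0.758% and 0.743% with miR3124_mimic, 0.846% and 0.804% with miR200b_mimic, 0.943% and 0.920% with miR92b_inhibitor, and 0.740% and 0.721% with the mixture. Every transfected library was below both miRcontrol libraries, and the mixed libraries had the lowest shares, just under the miR3124_mimic libraries. In normalized CPM these 2 groups overlapped: the members summed to 7371.7 and 7181.5 CPM with the mixture and to 7516.8 and 7319.8 CPM with miR3124_mimic. The summed level was 63.5% of that in miRcontrol with miR3124_mimic, 71.6% with miR200b_mimic, 79.8% with miR92b_inhibitor and 62.3% with the mixture. The miRcontrol group had the highest mean for 40 of 42 members, and the lowest mean was in the 3-miRNA mixed group for 20, with miR3124_mimic for 17 and with miR200b_mimic for 5.

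**Figure D1:**
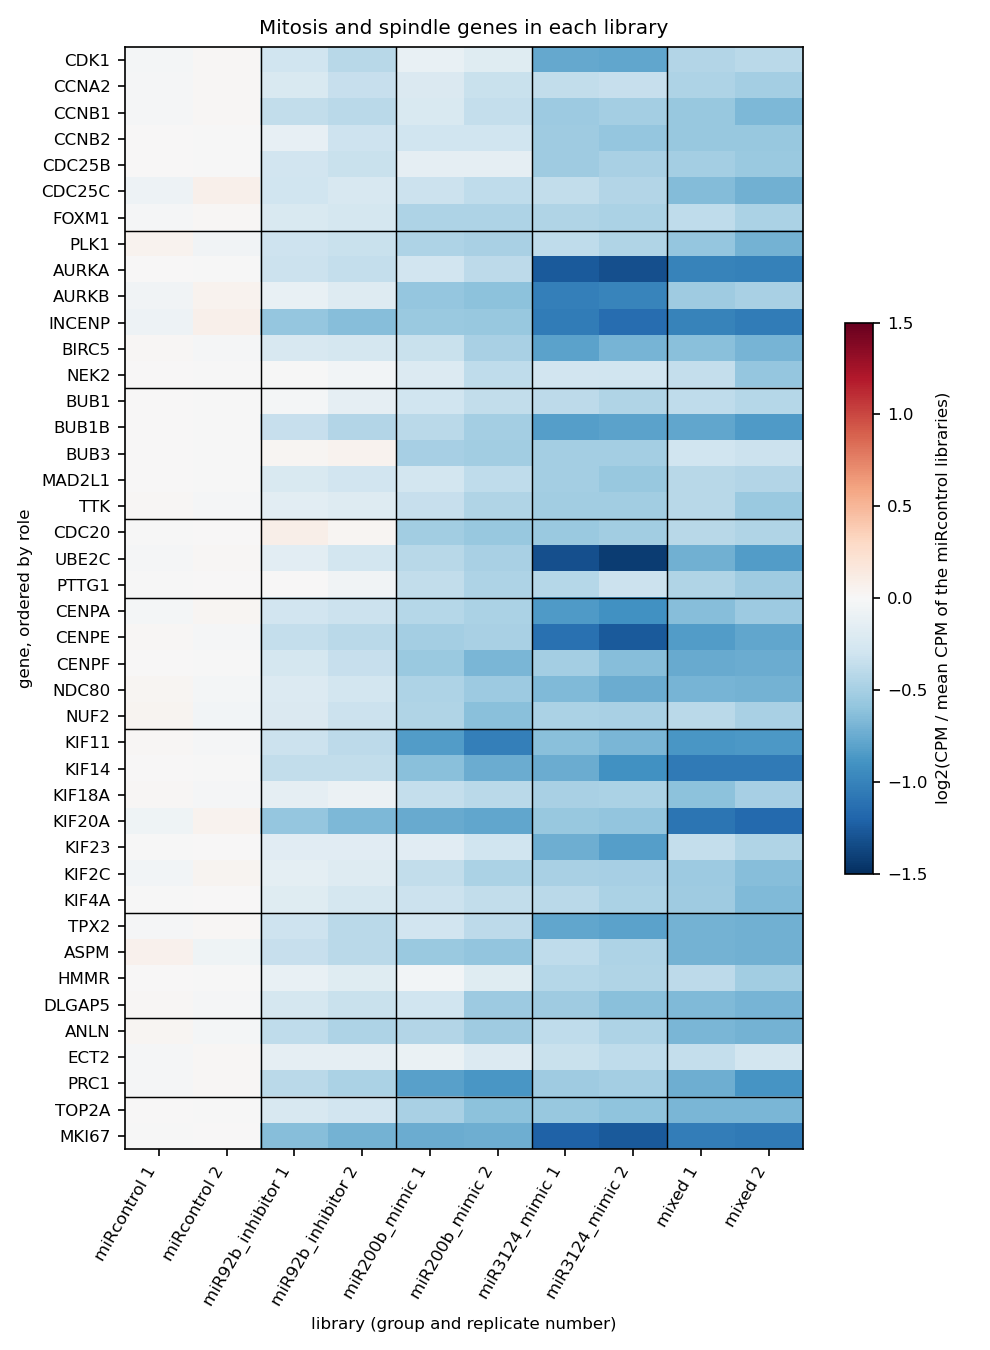
Each row is 1 of the 42 genes, grouped by role between black lines, and each column is 1 of the 10 libraries; the colour is log2 of the CPM over the mean CPM of the miRcontrol libraries. The miR3124_mimic and mixed columns are the darkest blue, the miR92b_inhibitor columns the palest, and BUB3 and CDC20 are faintly red with miR92b_inhibitor.

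Both libraries lay below both miRcontrol libraries for 42 of 42 members with miR3124_mimic, 42 with miR200b_mimic, 39 with miR92b_inhibitor and 42 with the mixture. The same was true of 36.3%, 33.4%, 33.6% and 34.6% of all genes tested. The study's own criterion asks for a change of 2-fold and p under 0.05, taken here as p before adjustment, and fewer members met it. They were 6 with miR3124_mimic (AURKA, AURKB, INCENP, UBE2C, CENPE and MKI67) and 5 in the 3-miRNA mixed group (AURKA, INCENP, KIF14, KIF20A and MKI67), and 0 with miR200b_mimic or miR92b_inhibitor. Without miRcontrol replicate 2, AURKB with miR3124_mimic (log2 fold change -0.954) and INCENP in the 3-miRNA mixed group (-0.946) no longer met it. AURKB also missed it without miR3124_mimic replicate 1, with library totals only and with at least 10 counts in every library, and INCENP without mixed replicate 2. Among all genes, 2.95%, 1.87%, 2.71% and 1.38% were lower by this criterion with miR3124_mimic, in the 3-miRNA mixed group, with miR200b_mimic and with miR92b_inhibitor.

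In the transfected groups most members were higher in library 1 of the pair, while the miRcontrol pair was more even. These counts were taken over the members only, so an offset between libraries that all genes share cannot be told apart from them. Library 1 was the higher of its pair for 38 of 42 members with miR200b_mimic, for 38 with miR92b_inhibitor, for 32 with miR3124_mimic, for 32 in the 3-miRNA mixed group and for 23 in miRcontrol. The median gap between the libraries of a pair was 0.0892 on the log2 scale with miR200b_mimic and less in the other groups. The members were therefore not taken as independent measurements of a group.

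CDK1 and its regulators fell in every transfected group, with a median log2 fold change over the 7 genes of -0.51 with miR3124_mimic, -0.29 with miR200b_mimic, -0.28 with miR92b_inhibitor and -0.54 in the 3-miRNA mixed group. CDK1, the kinase that starts mitosis, measured 157 and 162 CPM in miRcontrol, 94.0 and 93.1 CPM with miR3124_mimic, 147 and 140 CPM with miR200b_mimic, 129 and 119 CPM with miR92b_inhibitor, and 117 and 121 CPM in the 3-miRNA mixed group. The miR3124_mimic libraries stood lowest, the miR200b_mimic libraries nearest to miRcontrol, and the mixed and miR92b_inhibitor libraries overlapped. Its log2 fold change was -0.77 ± 0.05 (SE) with miR3124_mimic (adjusted p = 5.34e-19) and -0.15 ± 0.04 with miR200b_mimic (adjusted p = 0.00535). The latter call was lost without miRcontrol replicate 2 (-0.127) and without miR200b_mimic replicate 2 (-0.111). CCNB1, the cyclin B1 partner of CDK1, was at 404 and 415 CPM in miRcontrol, 281 and 288 CPM with miR3124_mimic, 350 and 321 CPM with miR200b_mimic, 316 and 310 CPM with miR92b_inhibitor, and 275 and 257 CPM in the 3-miRNA mixed group. No 2 groups overlapped for CCNB1, and the mixed libraries were the lowest (log2 fold change -0.62 ± 0.04, adjusted p = 6.59e-18).

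CCNA2, or cyclin A2, which works in S phase and early mitosis, had 192 and 195 CPM in miRcontrol, 149 and 152 CPM with miR3124_mimic, 167 and 154 CPM with miR200b_mimic, 166 and 152 CPM with miR92b_inhibitor, and 141 and 136 CPM in the 3-miRNA mixed group. Its change with miR3124_mimic, -0.36 ± 0.04 on the log2 scale, was among the 3 smallest of the members there, and the miR200b_mimic and miR92b_inhibitor libraries overlapped. CDC25B, a phosphatase that activates CDK1, gave 190 and 189 CPM in miRcontrol, 131 and 135 CPM with miR3124_mimic, 173 and 172 CPM with miR200b_mimic, 155 and 150 CPM with miR92b_inhibitor, and 132 and 128 CPM in the 3-miRNA mixed group. The miR200b_mimic libraries were close to miRcontrol (log2 fold change -0.13 ± 0.04, adjusted p = 0.00672), a call lost without miRcontrol replicate 1 (-0.129). CDC25B holds a seed match of miR-200b-3p in its 3′UTR. For the other genes of this role, CCNB2 (cyclin B2), CDC25C (a CDK1 phosphatase) and FOXM1 (a transcription factor of late cell cycle genes), the log2 fold changes ran from -0.69 (CDC25C, 3-miRNA mixed group) to -0.21 (CCNB2, miR92b_inhibitor, -0.116 and not called without miR92b_inhibitor replicate 2).

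The mitotic kinases and the chromosomal passenger complex included 3 of the 6 members that fell by 2-fold or more with miR3124_mimic. AURKA, the Aurora A kinase of spindle poles, measured 266 and 264 CPM in miRcontrol, 111 and 106 CPM with miR3124_mimic, 218 and 202 CPM with miR200b_mimic, 212 and 207 CPM with miR92b_inhibitor, and 132 and 132 CPM in the 3-miRNA mixed group. The miR3124_mimic libraries were the lowest, at a log2 fold change of -1.29 ± 0.04 (adjusted p = 9.04e-29), the mixed libraries came next at -1.01 ± 0.04 (adjusted p = 6.31e-25), and the libraries of the other two transfected groups overlapped. INCENP, the scaffold of the passenger complex, was at 181 and 201 CPM in miRcontrol, 92.5 and 86.2 CPM with miR3124_mimic, 129 and 128 CPM with miR200b_mimic, 128 and 123 CPM with miR92b_inhibitor, and 95.6 and 92.4 CPM in the 3-miRNA mixed group. The miR3124_mimic and mixed libraries of INCENP overlapped, and its fall with miR92b_inhibitor (-0.60 ± 0.05, adjusted p = 8.43e-15) was among the 3 furthest in that group.

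AURKB, the kinase of the same complex, had a log2 fold change of -1.00 ± 0.06 with miR3124_mimic and -0.15 ± 0.05 with miR92b_inhibitor, where the call was lost with DESeq2, without miRcontrol replicate 2 (-0.0998) and without miR92b_inhibitor replicate 2 (-0.108). BIRC5, or survivin, which targets the complex to centromeres, ranged from -0.75 with miR3124_mimic to -0.25 with miR92b_inhibitor. PLK1, the Polo-like kinase that acts from mitotic entry to cytokinesis, gave 242 and 227 CPM in miRcontrol, 179 and 172 CPM with miR3124_mimic, 170 and 167 CPM with miR200b_mimic, 189 and 186 CPM with miR92b_inhibitor, and 157 and 143 CPM in the 3-miRNA mixed group. All 8 transfected libraries lay below miRcontrol, and the mixed libraries lay below the rest (log2 fold change -0.64 ± 0.04, adjusted p = 3.79e-17). NEK2, a kinase that separates centrosomes, was at 64.0 and 64.0 CPM in miRcontrol, 52.4 and 52.2 CPM with miR3124_mimic, 55.6 and 49.1 CPM with miR200b_mimic, 63.5 and 62.1 CPM with miR92b_inhibitor, and 49.8 and 42.9 CPM in the 3-miRNA mixed group. NEK2 was the member with the smallest change with miR3124_mimic (-0.29 ± 0.06, adjusted p = 0.000128), and with miR92b_inhibitor its difference from miRcontrol did not pass the test (-0.03 ± 0.06, adjusted p = 0.769).

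**Figure D2:**
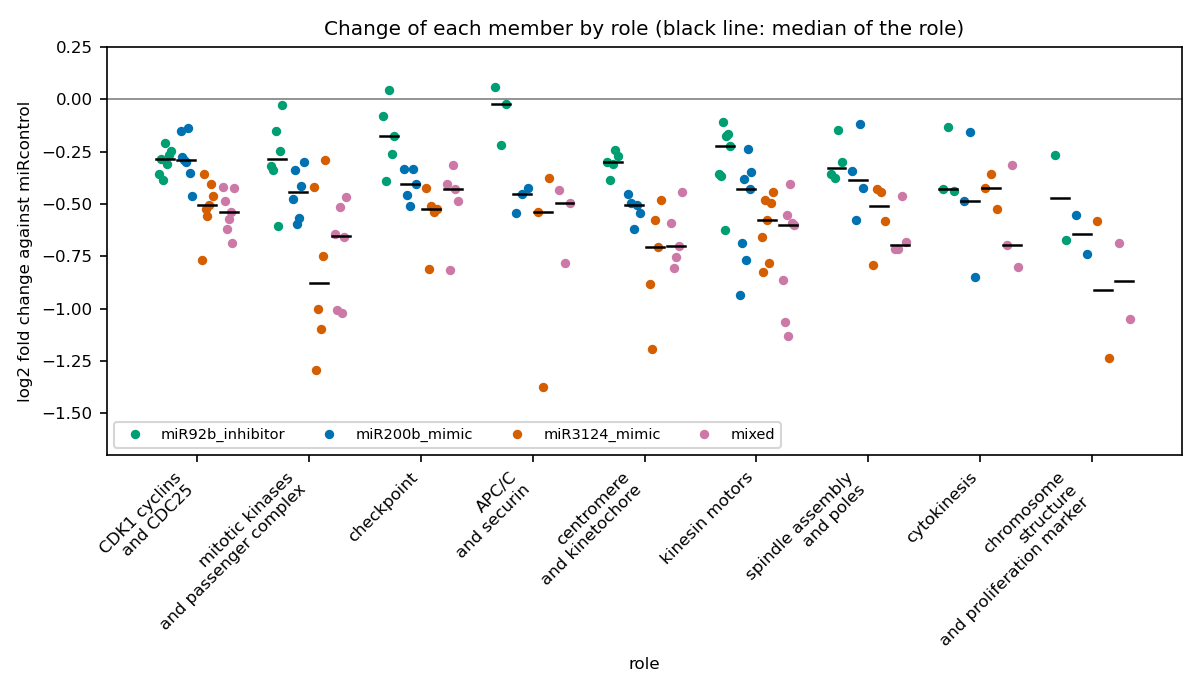
Each point is the log2 fold change of 1 member against miRcontrol (y axis), by role (x axis) and transfected group (colour); black lines are medians of a role. Points lie below 0 except BUB3 and CDC20 with miR92b_inhibitor, and the lowest point is UBE2C with miR3124_mimic at -1.37.

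With miR92b_inhibitor, 3 of the 5 checkpoint genes and 1 of the 3 genes of the APC/C and securin were called lower. Among all genes tested 18.2% were, and counts over so few genes are descriptions. BUB1, BUB3, CDC20 and PTTG1 were not called. The other members not called with miR92b_inhibitor were NEK2 and the kinesin gene KIF18A. BUB3, a checkpoint protein that binds unattached kinetochores, measured 397 and 397 CPM in miRcontrol, 279 and 279 CPM with miR3124_mimic, 281 and 277 CPM with miR200b_mimic, 407 and 411 CPM with miR92b_inhibitor, and 322 and 317 CPM in the 3-miRNA mixed group. The mimic libraries overlapped at the lowest level, the mixed libraries stood between them and miRcontrol, and the miR92b_inhibitor libraries were above miRcontrol by 0.04 ± 0.04 on the log2 scale (adjusted p = 0.373). CDC20, which activates the APC/C at anaphase, gave 242 and 245 CPM in miRcontrol, 166 and 169 CPM with miR3124_mimic, 170 and 164 CPM with miR200b_mimic, 258 and 249 CPM with miR92b_inhibitor, and 183 and 178 CPM in the 3-miRNA mixed group. CDC20 showed the same order as BUB3, with a difference of 0.06 ± 0.04 between miR92b_inhibitor and miRcontrol (adjusted p = 0.252).

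PTTG1, or securin, the inhibitor of the protease that parts sister chromatids, was at 144 and 146 CPM in miRcontrol, 107 and 115 CPM with miR3124_mimic, 112 and 105 CPM with miR200b_mimic, 145 and 140 CPM with miR92b_inhibitor, and 106 and 99.6 CPM in the 3-miRNA mixed group. The miR92b_inhibitor libraries of PTTG1 overlapped those of miRcontrol (-0.02 ± 0.05, adjusted p = 0.772). UBE2C, the ubiquitin-conjugating enzyme that works with the APC/C, had 190 and 194 CPM in miRcontrol, 76.9 and 71.6 CPM with miR3124_mimic, 144 and 137 CPM with miR200b_mimic, 172 and 159 CPM with miR92b_inhibitor, and 116 and 107 CPM in the 3-miRNA mixed group. It fell further than any other member with miR3124_mimic (-1.37 ± 0.05, adjusted p = 1.67e-27), and its 5 groups did not overlap. BUB1, a checkpoint kinase of the kinetochore, measured 180 and 178 CPM in miRcontrol, 136 and 131 CPM with miR3124_mimic, 146 and 138 CPM with miR200b_mimic, 176 and 163 CPM with miR92b_inhibitor, and 137 and 134 CPM in the 3-miRNA mixed group. Its change in the 3-miRNA mixed group, -0.40 ± 0.04, was among the 3 smallest there. Of the other checkpoint genes, BUB1B (BubR1) fell by 0.81 on the log2 scale both with miR3124_mimic and in the 3-miRNA mixed group, and MAD2L1 (Mad2) and TTK (the kinase Mps1) fell by 0.54 and 0.52 with miR3124_mimic.

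The 5 centromere and kinetochore genes were called lower in each transfected group, with medians of -0.71, -0.50, -0.30 and -0.70 on the log2 scale with miR3124_mimic, miR200b_mimic, miR92b_inhibitor and the mixture. Of all genes, 25.3%, 19.1%, 18.2% and 21.1% were called lower, in that order. CENPE, a kinesin that carries chromosomes to the spindle equator, had a log2 fold change of -1.19 ± 0.04 with miR3124_mimic (adjusted p = 4.59e-27) and -0.81 ± 0.04 in the 3-miRNA mixed group. CENPA, the histone variant of centromeres, changed by -0.88 ± 0.09 with miR3124_mimic, and CENPF, a large kinetochore protein, by -0.75 ± 0.04 in the 3-miRNA mixed group. NDC80 and NUF2, subunits of the complex that holds microtubules, lay between -0.71 and -0.24 over the 4 comparisons.

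Kinesins, the motors of the spindle, differed in which group was lowest. KIF11 (Eg5), which pushes spindle poles apart, measured 299 and 291 CPM in miRcontrol, 190 and 184 CPM with miR3124_mimic, 165 and 145 CPM with miR200b_mimic, 235 and 226 CPM with miR92b_inhibitor, and 162 and 162 CPM in the 3-miRNA mixed group. It fell further than any other member with miR200b_mimic (-0.93 ± 0.04, adjusted p = 1.18e-22), and its miR200b_mimic and mixed libraries overlapped. KIF20A, a motor of the central spindle in cytokinesis, was at 220 and 239 CPM in miRcontrol, 155 and 153 CPM with miR3124_mimic, 135 and 134 CPM with miR200b_mimic, 154 and 144 CPM with miR92b_inhibitor, and 107 and 102 CPM in the 3-miRNA mixed group. The mixed libraries were below all others (-1.13 ± 0.04, adjusted p = 1.27e-25), the furthest fall of any member in that group, while the miR3124_mimic and miR92b_inhibitor libraries overlapped.

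KIF14, which recruits cytokinesis proteins to the midbody, gave 146 and 145 CPM in miRcontrol, 87.1 and 77.7 CPM with miR3124_mimic, 94.5 and 86.8 CPM with miR200b_mimic, 113 and 113 CPM with miR92b_inhibitor, and 69.6 and 69.8 CPM in the 3-miRNA mixed group. The mimic libraries overlapped and the mixed libraries were lowest (-1.06 ± 0.05, adjusted p = 9.43e-23). KIF23, a subunit of centralspindlin, changed by -0.78 ± 0.04 with miR3124_mimic, against -0.24 ± 0.04 with miR200b_mimic and -0.41 ± 0.04 in the 3-miRNA mixed group. KIF2C, KIF4A and KIF18A, which shorten microtubules, shape the central spindle or damp chromosome movement, changed by between -0.60 and -0.35 in the groups that received a mimic.

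**Figure D3:**
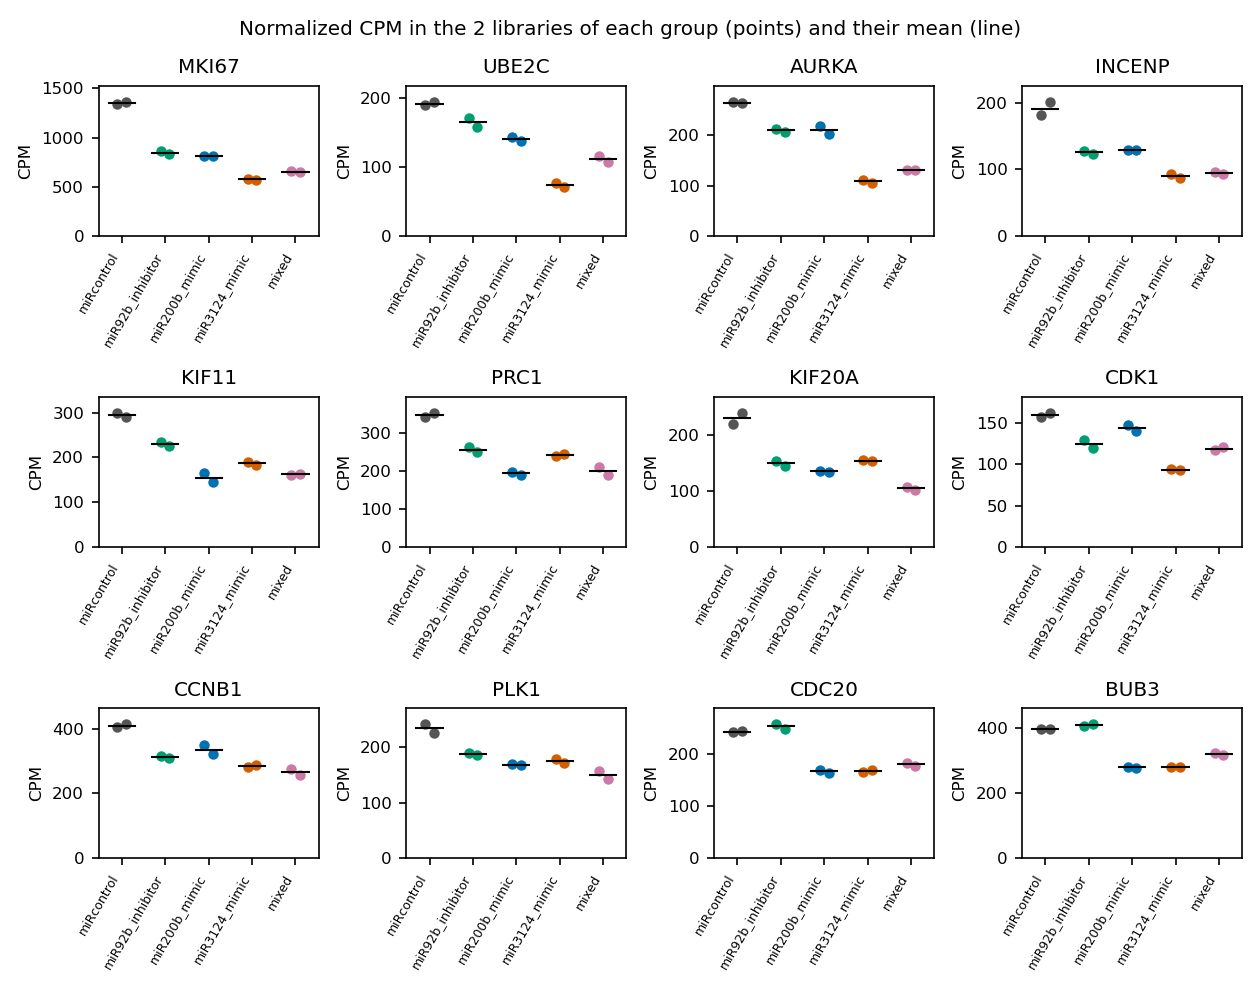
Each panel shows the CPM of 1 member (y axis, from 0) in the 2 libraries of each of the 5 groups (points) with their mean (line). MKI67, UBE2C, AURKA and CDK1 are lowest with miR3124_mimic, KIF20A, CCNB1 and PLK1 are lowest in the mixed group, and CDC20 and BUB3 are highest with miR92b_inhibitor.

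Spindle assembly and pole genes fell by medians of 0.51, 0.38, 0.33 and 0.70 on the log2 scale with miR3124_mimic, miR200b_mimic, miR92b_inhibitor and the mixture. HMMR, which binds spindle microtubules, measured 171 and 171 CPM in miRcontrol, 127 and 125 CPM with miR3124_mimic, 166 and 151 CPM with miR200b_mimic, 159 and 150 CPM with miR92b_inhibitor, and 130 and 119 CPM in the 3-miRNA mixed group. Its difference with miR200b_mimic was the smallest of the members (-0.12 ± 0.05, adjusted p = 0.0398), and those libraries overlapped the miR92b_inhibitor libraries. HMMR was no longer called there with TMM scaling, without a filter, with DESeq2 or without any of 4 libraries (miRcontrol replicate 1 or 2, miR3124_mimic replicate 1 or miR200b_mimic replicate 2), and the value without miR200b_mimic replicate 2 was -0.0441. TPX2, which activates AURKA on the spindle, changed by -0.79 ± 0.04 with miR3124_mimic, ASPM, a spindle pole protein, by -0.71 ± 0.04 in the 3-miRNA mixed group, and DLGAP5, a stabilizer of spindle microtubules, by -0.68 ± 0.05 in that group.

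PRC1, which bundles the microtubules of the central spindle, had 342 and 351 CPM in miRcontrol, 239 and 243 CPM with miR3124_mimic, 197 and 189 CPM with miR200b_mimic, 262 and 249 CPM with miR92b_inhibitor, and 209 and 188 CPM in the 3-miRNA mixed group. As with KIF11, the miR200b_mimic and mixed libraries overlapped at the lowest level, and the log2 fold change was -0.85 ± 0.04 with miR200b_mimic (adjusted p = 9.05e-22) against -0.52 ± 0.04 with miR3124_mimic. ECT2, the exchange factor that starts furrow ingression, was at 290 and 299 CPM in miRcontrol, 234 and 226 CPM with miR3124_mimic, 274 and 256 CPM with miR200b_mimic, 268 and 269 CPM with miR92b_inhibitor, and 231 and 244 CPM in the 3-miRNA mixed group. ECT2 was the member with the smallest change in the 3-miRNA mixed group (-0.31 ± 0.04, adjusted p = 6.93e-09), and its mixed and miR3124_mimic libraries overlapped. ANLN, the furrow scaffold anillin, was the highest member per length in miRcontrol at 249 CPM per kb of transcript and changed by -0.70 ± 0.04 in the 3-miRNA mixed group.

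MKI67, the gene of the proliferation marker Ki-67, measured 1345 and 1360 CPM in miRcontrol, 582 and 565 CPM with miR3124_mimic, 810 and 811 CPM with miR200b_mimic, 866 and 829 CPM with miR92b_inhibitor, and 660 and 648 CPM in the 3-miRNA mixed group. No groups overlapped. It was among the 3 members that fell furthest with miR3124_mimic (-1.24 ± 0.03, adjusted p = 4.66e-32), with miR92b_inhibitor (-0.67 ± 0.03, adjusted p = 3.43e-21) and in the 3-miRNA mixed group (-1.05 ± 0.03, adjusted p = 4.53e-29). TOP2A, the topoisomerase that untangles sister chromatids, changed by -0.58 ± 0.04, -0.55 ± 0.04, -0.27 ± 0.04 and -0.68 ± 0.04 with miR3124_mimic, miR200b_mimic, miR92b_inhibitor and the mixture.

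With miR200b_mimic, the 7 members with a seed match of miR-200b-3p had a median log2 fold change of -0.51 (range -0.93 to -0.13) and the 35 without one -0.42 (range -0.85 to -0.12). Promoter words are given in the order miR3124_mimic, miR200b_mimic, miR92b_inhibitor and the mixture. The 24 members with TTTGAA or TTCAAA in the window had medians of -0.57, -0.48, -0.30 and -0.66. The 11 without these words had -0.50, -0.35, -0.27 and -0.54. The 27 members with CCAAT or ATTGG had medians of -0.54, -0.42, -0.28 and -0.59, and the 8 without them -0.50, -0.47, -0.29 and -0.69. The median with these words was the lower of the pair with miR3124_mimic and the higher in the other groups. No other forms of the CHR were searched, so a member without the words may still hold the element. The windows of CDC25B and CDC25C held none of these words. Both lay upstream of the start of the transcript used for the 3′UTR search, so sites near that start were not searched. These medians are descriptions and were not tested.

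The 3-miRNA mixed group was compared with each single transfection to see where the combination differed from its parts. Against miR92b_inhibitor, 41 of 42 members were lower in the 3-miRNA mixed group (all except CDK1, -0.06 ± 0.05, adjusted p = 0.298), with a median log2 difference of -0.37, while 19.9% of all genes were called lower. No member was called higher by edgeR, 0 at an unadjusted p under 0.05 and 0 by DESeq2. The share of all genes called higher is not shown here for this comparison, so whether a count of 0 is unusual cannot be read from it. KIF14 differed furthest (-0.69 ± 0.05, adjusted p = 1.21e-15), followed by AURKA (-0.67 ± 0.04, adjusted p = 4.86e-18). Against miR200b_mimic, 30 members were lower, where 20.4% of all genes were, and 2 were higher (BUB3 and CDC20), where 18.2% of all genes were. The median was -0.18, AURKA differed furthest (-0.67 ± 0.04, adjusted p = 1.32e-17), and BUB3 was higher by 0.20 ± 0.04 (adjusted p = 2.17e-05). CDC20 was higher by 0.11 ± 0.04 (adjusted p = 0.0272). The count of 2 became 1 with DESeq2, without a filter on low counts, without miR200b_mimic replicate 2, and without either mixed library.

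Against miR3124_mimic the members split. In the 3-miRNA mixed group 15 were lower (35.7% of the members, against 23.8% of all genes), 10 were higher (23.8%, against 25.3% of all genes) and 17 were not called, so the share called higher was near that of all genes. The median difference was -0.01. KIF20A was the furthest below (-0.55 ± 0.05, adjusted p = 5.5e-14), and UBE2C (0.59 ± 0.05, adjusted p = 1.94e-13) and AURKB (0.49 ± 0.06, adjusted p = 3.66e-09) were the furthest above. The others that were higher were CDK1, AURKA, BUB3, CDC20, CENPA, CENPE, KIF23 and MKI67, of which CDC20 lost its call with DESeq2 and without either miR3124_mimic library or mixed replicate 1, and CENPA without miR3124_mimic replicate 2 or mixed replicate 2. The count of 15 fell to 9 without miR3124_mimic replicate 1, and also to 9 without mixed replicate 2. In 12 members (CCNA2, CCNB1, CDC25C, PLK1, NEK2, CENPF, KIF14, KIF20A, KIF4A, ASPM, ANLN and TOP2A) the 3-miRNA mixed group was called lower than each of the single transfections, as were 0.887% of all genes; the 3 comparisons share the mixed libraries. Only ASPM, ANLN, CDC25C and KIF20A (4 members) kept all 3 calls whichever library was left out. Without miR3124_mimic replicate 1 the count was 6, without mixed replicate 2 it was 6, and with DESeq2 it was 9. The call of CCNB1 against miR3124_mimic (-0.10 ± 0.04) was lost without any of 7 libraries, over a range of -0.142 to -0.0462. Against miR3124_mimic, NEK2 and TOP2A also lost their calls without any of 3 libraries, over ranges of -0.280 to -0.0679 for NEK2 and -0.119 to -0.0814 for TOP2A.

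**Figure D4:**
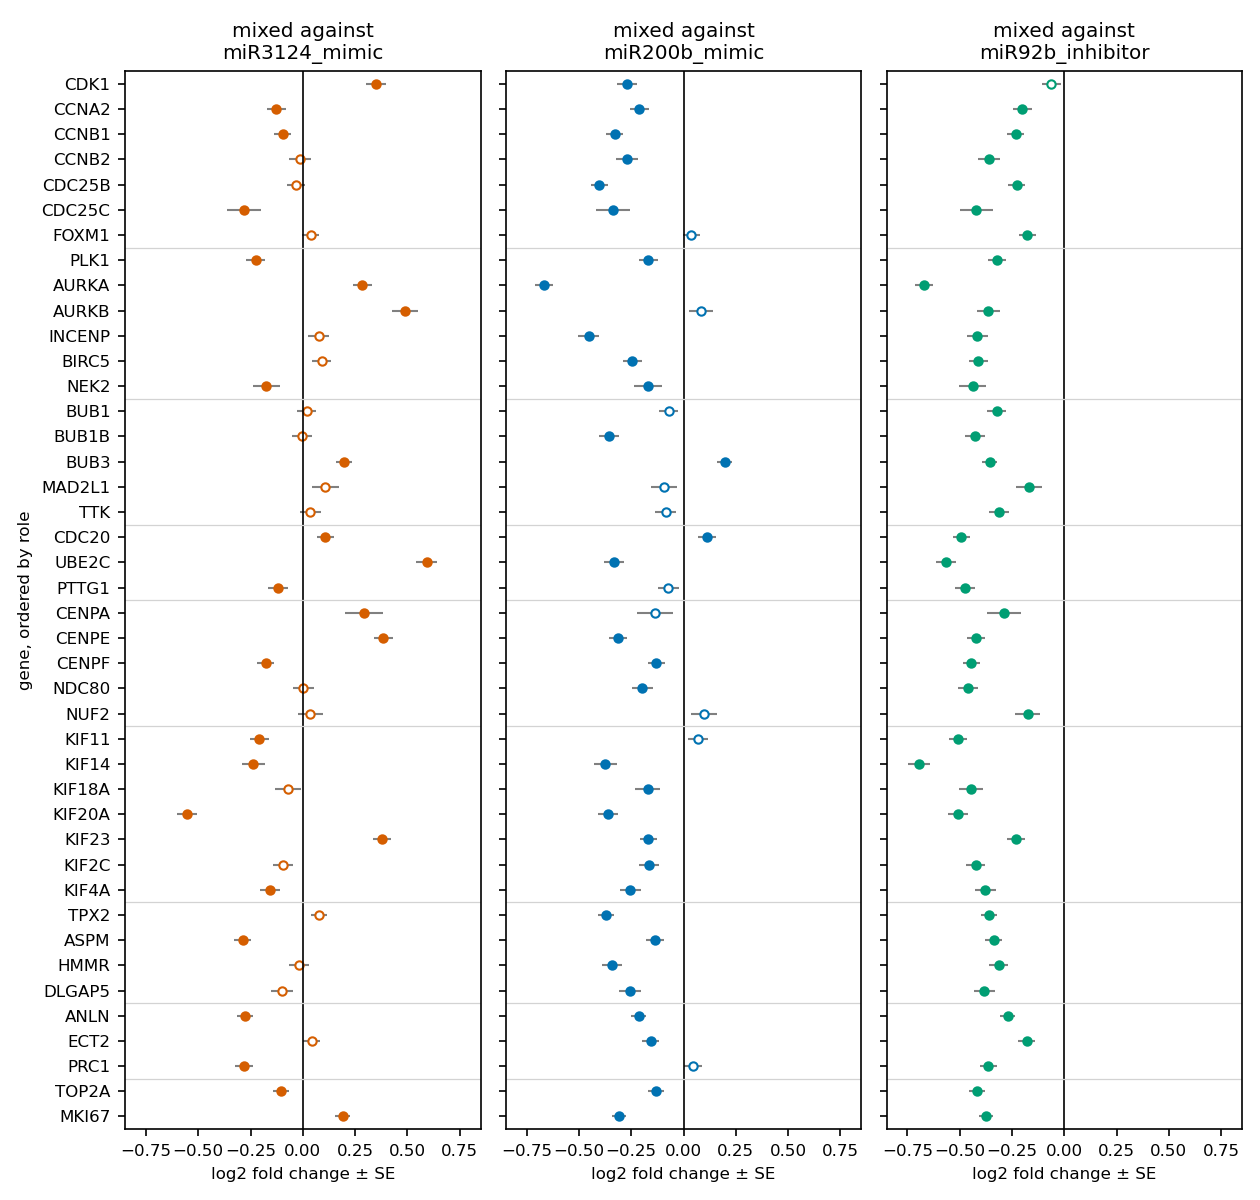
Each panel gives the log2 fold change ± SE (x axis) of the 3-miRNA mixed group against 1 single transfection for the 42 members (y axis, by role); filled points passed an adjusted p under 0.05 and open points did not. Against miR92b_inhibitor all points are left of 0, against miR200b_mimic 35 are, and against miR3124_mimic 22 are.

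The single transfections also differed from each other. Levels with miR3124_mimic were lower than with miR200b_mimic for 22 members (29.9% of all genes were lower) and higher for KIF11, KIF20A, ASPM and PRC1 (4 members; 27.9% of all genes were higher). AURKA was lower by 0.95 ± 0.04 (adjusted p = 1.69e-23), and PRC1 was higher by 0.32 ± 0.04 (adjusted p = 1.33e-08). Against miR92b_inhibitor, 35 members were lower with miR3124_mimic, where 29.4% of all genes were, and UBE2C differed furthest (-1.16 ± 0.05, adjusted p = 1.34e-24). None was higher by edgeR, with 0 at an unadjusted p under 0.05 and 0 by DESeq2. Here too the share of all genes called higher is not shown, so whether a count of 0 is unusual cannot be read from it. Between miR200b_mimic and miR92b_inhibitor, 25 members were lower with the mimic, where 24.8% of all genes were, led by CDC20 (-0.60 ± 0.04, adjusted p = 1.65e-17). In the other direction CDK1, CCNB1 and CDC25B were higher with miR200b_mimic (3 members; 25.6% of all genes), CDK1 by 0.21 ± 0.05 (adjusted p = 0.000156). CCNB1 was not called there with DESeq2, with library totals only, without miR200b_mimic replicate 1 (0.0385) or without either miR92b_inhibitor library. Between the mimics, ASPM was not called without miR3124_mimic replicate 1 (0.104).

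Other genes of the mitotic machinery were called in both directions. The counts are given in the order miR3124_mimic, miR200b_mimic, miR92b_inhibitor and the mixture, for which 25.3%, 19.1%, 18.2% and 21.1% of all genes were called lower and 25.7%, 21.4%, 17.5% and 21.5% higher. Of 18 further mitotic kinases and regulators, 17, 9, 7 and 15 were lower, and 1 was higher in each. The exception with miR3124_mimic was WEE1, the kinase that holds CDK1 inactive, which was higher by 0.94 ± 0.05 there (adjusted p = 1.1e-19), by 0.58 ± 0.06 with miR200b_mimic (adjusted p = 4.68e-12) and by 0.42 ± 0.06 in the 3-miRNA mixed group (adjusted p = 1.99e-08). Of 27 other spindle and cytokinesis genes that passed the filter, 22, 20, 16 and 21 were lower and 1 was higher, with miR92b_inhibitor. CIT, the citron kinase of the midbody, was the lowest with miR3124_mimic (-1.03 ± 0.05, adjusted p = 4.76e-22). Among 20 condensin and cohesin genes 16, 17, 8 and 16 were lower and 2, 1, 2 and 1 higher, and with miR92b_inhibitor 10 were not called (median log2 fold change -0.08). The condensin subunit NCAPG2 fell by 1.16 with miR3124_mimic. Among 31 other centromere and kinetochore genes 18, 21, 10 and 15 were lower. With miR92b_inhibitor 6 of these were higher and 15 not called (median -0.002), and with the mixture 3 were higher. SPC24, a subunit of the complex of NDC80 and NUF2, was at -1.15 ± 0.06 with miR3124_mimic.

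Of 17 genes of the APC/C and mitotic exit, 6, 6, 5 and 7 were lower and 3, 2, 5 and 6 higher in that order, with 8, 9, 7 and 4 not called, and the medians were -0.03, -0.06, 0.08 and -0.03 on the log2 scale. The genes called higher made up a smaller share of this list than of all genes with miR3124_mimic (25.7% of all genes) and miR200b_mimic (21.4%) and a larger one with miR92b_inhibitor (17.5%) and the mixture (21.5%), and those called lower a larger one in each (25.3%, 19.1%, 18.2% and 21.1% of all genes). With 17 genes these shares are descriptions, and calls in both directions are not particular to the list. FBXO5 (EMI1), an inhibitor of the APC/C, was the lowest with miR3124_mimic (-1.12 ± 0.06, adjusted p = 7.45e-21). Of 36 DNA replication genes, 28, 24, 16 and 27 were lower and 4, 4, 4 and 1 higher, with medians of -0.30, -0.20, -0.13 and -0.29. CCNE1 (cyclin E1) was higher by 0.68 with miR3124_mimic and by 0.73 with miR200b_mimic. With the mixture the highest gene of this list was GMNN, at a log2 fold change of 0.14, so CCNE1 was not above that there. RRM2, a subunit of ribonucleotide reductase, fell by 1.32 with miR3124_mimic. Of 20 genes of the MuvB, E2F and NF-Y complexes, 10, 8, 5 and 11 were lower and 4, 4, 5 and 2 were higher. RBL1 (p107), a pocket protein that binds MuvB, had a log2 fold change of -1.87 ± 0.06 with miR200b_mimic (adjusted p = 1.13e-30) and -1.57 ± 0.05 in the 3-miRNA mixed group (adjusted p = 1.18e-28). TFDP1, the DNA-binding partner of E2F proteins, had one of -1.41 ± 0.04 with miR3124_mimic (adjusted p = 4.6e-30). Among the genes called higher were E2F5, by 1.55 ± 0.39 with miR3124_mimic (adjusted p = 0.000737), and E2F7, by 0.65 ± 0.04 with miR200b_mimic (adjusted p = 2.44e-18).

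**Figure D5:**
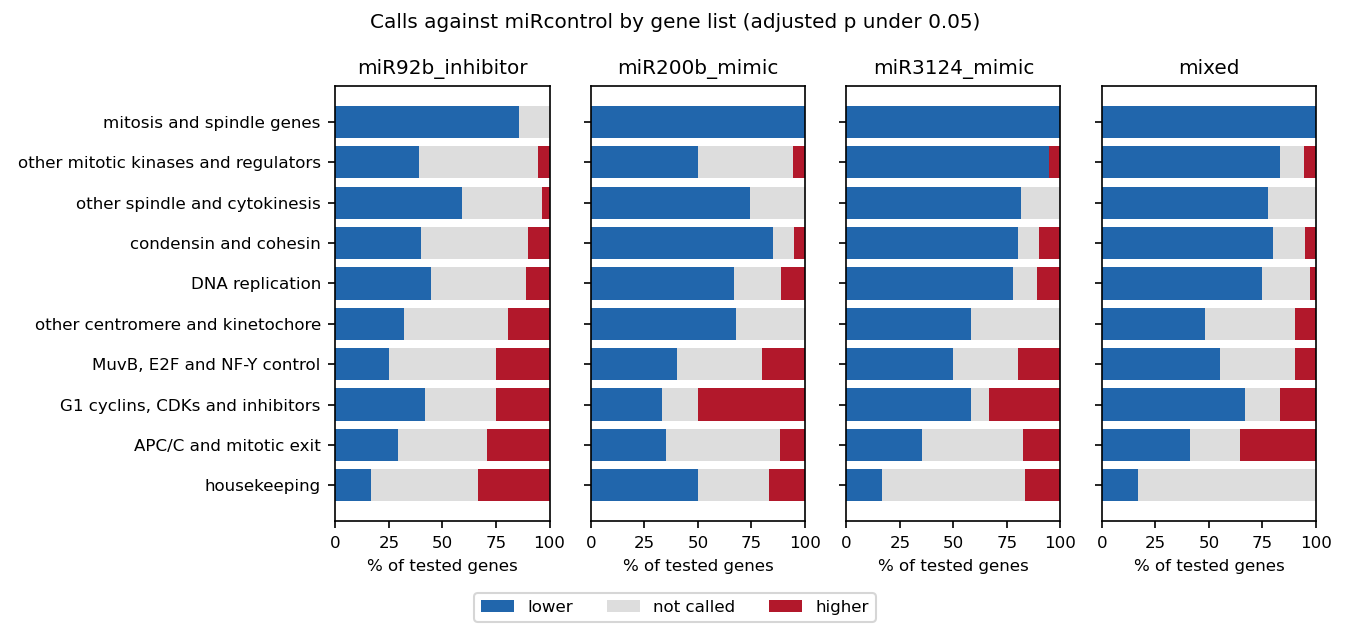
Bars give, for each gene list (y axis) and transfected group (panel), the percent of tested genes (x axis) called lower (blue), not called (grey) and called higher (red) against miRcontrol. The bar of the 42 mitosis and spindle genes is wholly blue except with miR92b_inhibitor, where 36 of 42 were lower, and the APC/C list has both colours in every panel.

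Markers of cell state were counted in the same comparisons. The 7 epithelial markers, of which KRT8 was the most abundant in miRcontrol, summed to 2268 and 2220 CPM in miRcontrol, 2774 and 2781 CPM with miR3124_mimic, 4188 and 4270 CPM with miR200b_mimic, 2188 and 2098 CPM with miR92b_inhibitor, and 4109 and 4081 CPM in the 3-miRNA mixed group. Of the 6 that passed the filter, 2 were called higher and 1 lower with miR3124_mimic, 6 higher with miR200b_mimic, 2 lower and 4 not called with miR92b_inhibitor, and 5 higher and 1 lower with the mixture. Of all genes, 25.7% were higher and 25.3% lower with miR3124_mimic, 21.4% and 19.1% with miR200b_mimic, 17.5% and 18.2% with miR92b_inhibitor, and 21.5% and 21.1% with the mixture, so the epithelial counts with miR3124_mimic were near these shares. KRT19 was the gene that was lower with miR3124_mimic, at a log2 fold change of -3.40 ± 0.24 (adjusted p = 8.31e-17), and with the mixture, at -1.65 ± 0.18 (adjusted p = 1.15e-10). The 8 mesenchymal markers, led by VIM, summed to 7569 and 7539 CPM in miRcontrol, 4851 and 4718 CPM with miR3124_mimic, 4779 and 4726 CPM with miR200b_mimic, 7201 and 7043 CPM with miR92b_inhibitor, and 5155 and 5174 CPM in the 3-miRNA mixed group. Counted by gene, the 6 that passed the filter were mixed: 1 was called lower and 3 higher with miR3124_mimic, 5 lower and 1 higher with miR200b_mimic, 3 lower and 1 higher with miR92b_inhibitor, and 4 lower and 2 higher with the mixture. VIM had a log2 fold change of -2.23 ± 0.03 with miR3124_mimic, where PDGFRB had one of 1.95 ± 0.12 and the median of the list was 0.25. COL1A1 was higher by 0.99 ± 0.10 with miR3124_mimic, by 1.62 ± 0.10 with miR200b_mimic and by 0.87 ± 0.10 with the mixture. With miR92b_inhibitor COL1A1 went the other way, at a log2 fold change of -0.90 ± 0.13 (adjusted p = 1.3e-07). The 5 leukocyte markers summed to at most 2.05 CPM except with miR3124_mimic (12.8 and 12.8 CPM, nearly all CD14, with PTPRC at 0), and the 4 endothelial markers to at most 1.40 CPM except with miR3124_mimic (4.78 and 3.23 CPM, most of it CDH5). The part of these markers in the changes of the mitosis and spindle genes was not tested.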

How the data were processed

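RNA of 10 BEAS2B libraries (2 per group) was made into poly(A)-selected, strand-marking libraries and sequenced. The authors trimmed the reads, mapped them with TopHat to GRCh38 and deposited 1 table of raw read counts per library; the counter, its annotation and its use of strand are not given in the sources used here. Each table held 58173 rows; 5771 repeated symbols were summed, leaving 52402. Genes were filtered with filterByExpr, scaled by RLE and tested in 1 fit over all 10 libraries with edgeR 4.0.16 (glmQLFit, glmQLFTest; R 4.3.3, limma 3.58.1), with Benjamini-Hochberg adjustment over 14884 genes in each of 10 comparisons; the script was tested on simulated data. CPM used totals multiplied by the RLE factor. Exact permutation of 2 against 2 libraries cannot reach 0.05. The depth, 13587666 to 18503890 counts, limits the precision of low genes, and intervals of shares (Clopper-Pearson) cover counting error only.

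The members and gene lists were chosen with earlier results of these data known. Library values were given for CDK1, CCNB1, PLK1 and the 3 members with the highest and the 3 with the lowest log2 fold change in each comparison with miRcontrol; of each other list, the highest and lowest gene could be named. HASPIN was matched by its older symbol GSG2. Alternatives were other scalings, filters and fits, DESeq2 1.42.0, left-out libraries, a replicate block, a shorter promoter window and a longer seed match. A planned count of KEN motifs in proteins was not run.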

Additional observations from a re-analysis of the deposited data

How the results depend on the processing

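In no alternative did a called member change direction against miRcontrol, and all 42 members stayed lower with miR3124_mimic and in the 3-miRNA mixed group under every alternative except the criterion of a 2-fold change. That criterion left 6 members lower with miR3124_mimic, 5 in the 3-miRNA mixed group, 0 with miR200b_mimic and 0 with miR92b_inhibitor. Between transfected groups it left 1 lower (miR3124_mimic against miR92b_inhibitor) and 0 in every other comparison and direction. Shares of all genes by that criterion are given only against miRcontrol, so whether these counts are unusual cannot be read from them. With miR200b_mimic, 39 to 42 members were lower when 1 library was left out, and with miR92b_inhibitor 32 to 37. The median log2 fold change with miR3124_mimic was -0.512 with library totals only and -0.522 with at least 10 counts in every library.

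Leaving out 1 library at a time moved the median from -0.548 to -0.536 with miR3124_mimic, from -0.667 to -0.597 in the 3-miRNA mixed group, from -0.256 to -0.157 for the 3-miRNA mixed group against miR200b_mimic, and from -0.357 to -0.288 for miR3124_mimic against miR92b_inhibitor. The mixed group had 9 to 15 members lower than with miR3124_mimic, and 1 to 3 members higher than with miR200b_mimic, where no filter and DESeq2 each gave 1. A replicate block gave 42, 42, 36 and 42 members lower than in miRcontrol with miR3124_mimic, miR200b_mimic, miR92b_inhibitor and the mixture, and changed these counts in no comparison except miR3124_mimic against miR92b_inhibitor (36 lower in place of 35). The deviations of same-numbered libraries correlated at between -0.0365 and 0.0445 over 12900 genes, and these libraries were not treated as pairs. Over the members alone, library 1 was the higher for 23 to 38 of 42 in all 5 groups, and what the number marks is not given in the sources used here. In the promoter window from 150 bases before the start, 0.0% of members held TTTCCCGC, against 1.716% of tested genes. An 8-base match of miR-200b-3p left 2.38% of members with a site, against 4.715% of tested genes with a 3′UTR.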

Other observations

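Of 12 G1 cyclins, CDKs and inhibitors that passed the filter, 7 were called lower and 4 higher with miR3124_mimic, 4 and 6 with miR200b_mimic, 5 and 3 with miR92b_inhibitor, and 8 and 2 with the mixture. Among all genes tested, 25.3% were lower and 25.7% higher with miR3124_mimic, 19.1% and 21.4% with miR200b_mimic, 18.2% and 17.5% with miR92b_inhibitor, and 21.1% and 21.5% with the mixture. CCND2 (cyclin D2) was at 2.04 CPM in miRcontrol, 8.47 CPM with miR3124_mimic, 5.72 CPM with miR200b_mimic, 2.835 CPM with miR92b_inhibitor and 9.69 CPM in the 3-miRNA mixed group, a log2 fold change of 2.24 ± 0.19 in the last (adjusted p = 4.73e-14). CDKN2C, an inhibitor of CDK4 and CDK6, was lower by 0.83 ± 0.06 with miR200b_mimic and by 1.16 ± 0.06 in the 3-miRNA mixed group. CCND1 (cyclin D1) had a log2 fold change of -0.92 ± 0.03 with miR3124_mimic (adjusted p = 6.21e-27). The 6 housekeeping genes had medians within 0.13 of 0 on the log2 scale in the comparisons with miRcontrol. With miR3124_mimic, miR200b_mimic, miR92b_inhibitor and the mixture, 1, 3, 1 and 1 were called lower and 1, 1, 2 and 0 higher. GUSB was lower by 0.48 ± 0.06 with miR92b_inhibitor and by 0.37 ± 0.06 in the 3-miRNA mixed group. GAPDH was lower by 0.26 ± 0.03 with miR200b_mimic.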
